A study of Saccharomyces cerevisiae with 6 samples.

Results

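Upper glycolysis takes glucose from its phosphorylation inside the cell to the triose phosphates, and its enzymes in budding yeast are encoded by HXK1, HXK2, GLK1, PGI1, PFK1, PFK2, FBA1 and TPI1. These 8 genes were chosen by their place in the pathway and matched by gene symbol to the spots of a cDNA array. All 8 were found, each on 1 spot, among 5365 genes on the array, and all 8 were among the 3642 genes with a value on every hybridization. Exponentially growing Saccharomyces cerevisiae of strain S288C, in rich medium with glucose at 25 °C, received chloroacetaldehyde at 25 ppm at an optical density of 1 and was collected after 2 h. Chloroacetaldehyde is a chlorinated aldehyde that reacts with thiols and with nucleic acid bases. On each array, polyadenylated RNA from exposed cells (Cy5) was compared with RNA from cells taken at that density before the addition (Cy3). The study made 3 such hybridizations, which the labels call biologically independent, and read each array in 2 scans, a high-power and a low-power one. The question of the comparison is how the transcripts of exposed cells differed from those of the starting culture.

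Each value is the log2 ratio of exposed to unexposed RNA, so the values show relative change and not the level of a transcript. No source used here states the base of the logarithm, taken as 2, or which channel is the numerator. Exposed over before is likely, from the channel order in the labels, and all signs would turn if it were the reverse. Dyes were never swapped, and exposed cells were collected 2 h later than the cells they were compared with. Dye, time in culture and exposure therefore cannot be told apart. A change in the number of cells of a given state and a change in RNA per cell also cannot be told apart in bulk RNA. Across the 3642 genes the log2 ratios of replicate 1 correlated at 0.206 with those of replicate 2 and at -0.0537 with those of replicate 3, and replicates 2 and 3 correlated at 0.0698 (genes are not independent replicates). In all, 2 genes, 0.0549% of those tested, passed an adjusted p of 0.05 (limma against 0, Benjamini-Hochberg adjustment over all genes).

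In yeast, glucose is phosphorylated by 3 enzymes, the hexokinases Hxk1 and Hxk2 and the glucokinase Glk1. Hxk2 is the main one during growth on glucose and also takes part in glucose repression, while HXK1 and GLK1 are genes that glucose holds low. Pgi1 converts glucose 6-phosphate to fructose 6-phosphate, phosphofructokinase, built from the subunits Pfk1 and Pfk2, adds the second phosphate, aldolase (Fba1) splits the product, and Tpi1 interconverts the triose phosphates. The transcripts of glycolytic enzymes are among the most abundant in cells growing on glucose.

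None of the 8 genes passed the test. For 7 of them, all but PFK1, the SD over the hybridizations was larger than the size of the mean, as for 75.8% of all genes. By limma with Benjamini-Hochberg adjustment 0 of 8 passed, with an adjusted p from 0.886 to 0.998, and at an unadjusted p of 0.05 also 0 of 8, against 6.15% of all genes. Of the 8, 6 had a mean below 0, against 55.2% of all genes. The median of the 8 means was -0.18, beside -0.037 over all genes tested. On replicate 1 all 8 were below 0, where 57.2% of all genes were, with a median of -0.74 and a range from -1.60 to -0.15. On replicate 2, 4 were below 0 and 4 above, with a median of -0.070 and a range from -1.26 to 0.38; 50.5% of all genes were below 0 there. On replicate 3, 7 were above 0, where 47.9% of all genes were, with a median of 0.50 and a range from -0.18 to 2.13. The median of all genes tested was -0.092, -0.0060 and -0.023 on the 3 hybridizations. Without replicate 1 the median of the 8 means turned to 0.15, and it was -0.19 without replicate 2 and -0.26 without replicate 3.

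**Figure D1:**
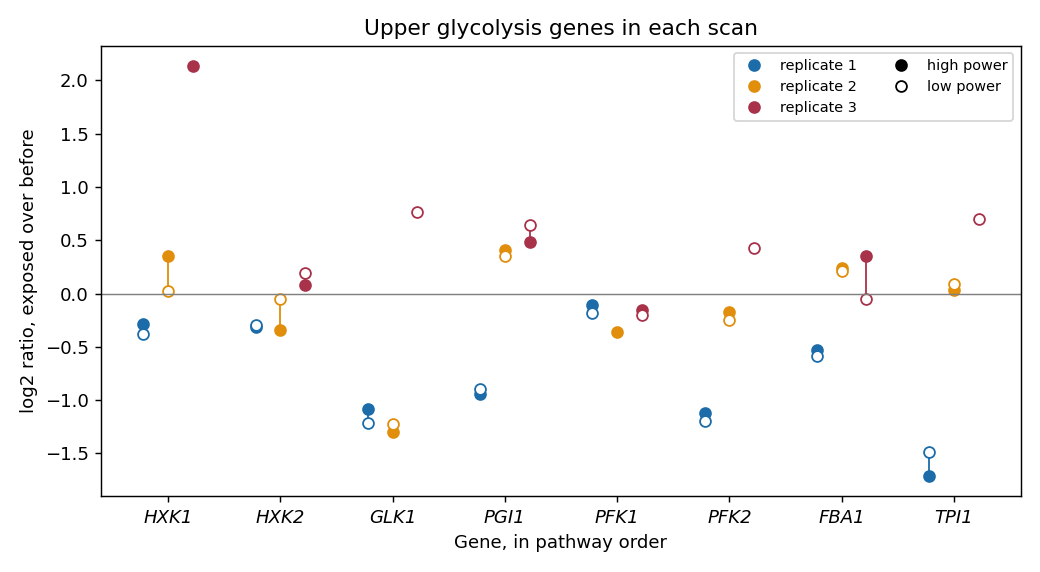
Log2 ratio of exposed over before (vertical axis) for each upper glycolysis gene (horizontal axis, pathway order) in each scan; colours are the 3 hybridizations, filled points high power and open points low power, and a line joins the scans of a hybridization. TPI1, PFK2 and GLK1 lie below -1 on replicate 1 in both scans, and HXK1 stands at 2.13 on replicate 3, from the high-power scan alone.

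HXK1 (YFR053C), the hexokinase gene held low by glucose, had log2 ratios of -0.33, 0.19 and 2.13 on replicates 1, 2 and 3. Replicate 3 stood far above the other two, 4.38-fold higher than before exposure and at percentile 99.7 of the genes tested on that array. It was the 1 member more than 2-fold higher there, as 3.19% of all genes were. Its mean was 0.66 ± 1.30 (SD, n = 3), with a 95% interval of the fit from -0.29 to 1.62 (limma, adjusted p = 0.886). The fit moderates the variance of each gene across all genes. For a gene with a large SD the interval is thus narrower than its own 3 values would give. Without replicate 3 the mean of HXK1 was -0.073. The value on replicate 3 came from the high-power scan alone.

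HXK2 (YGL253W), the hexokinase gene used during growth on glucose, had log2 ratios of -0.30, -0.20 and 0.14. All of them lay within 1.24-fold of the level before exposure, and the mean was -0.12 ± 0.23 (95% interval -0.64 to 0.39; limma, adjusted p = 0.965). In fold terms that interval runs from 0.642 to 1.31, so a change of 2-fold or more in either direction lies outside it. The same held for the intervals of PGI1, PFK1 and FBA1, and not for those of HXK1, GLK1, PFK2 and TPI1. With each scan centred within groups of 36 neighbouring spot numbers, a setting chosen after seeing the data, HXK2 had -0.34 ± 0.60.

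GLK1 (YCL040W), the glucokinase gene, had log2 ratios of -1.15, -1.26 and 0.76. It was lower by 2.22-fold and 2.40-fold on replicates 1 and 2 and higher by 1.70-fold on replicate 3. It was the 1 member more than 2-fold lower on replicate 2, as 3.9% of all genes were. On replicates 1 and 2 it lay among the lowest genes, at percentiles 1.59 and 2.44 of those tested, and on replicate 3 at percentile 94.1. The mean of -0.55 ± 1.14 was the lowest of the 8, with an interval from -1.42 to 0.32 (limma, adjusted p = 0.886). Without replicate 3 the mean was -1.21 (adjusted p = 0.202 by limma on 2 hybridizations). The value on replicate 3 came from the low-power scan alone. EMI2, a paralog of GLK1 named here after its values were seen, had -1.39, -1.58 and 0.78; cDNA spots of close copies can bind RNA of each other, and the share of such binding is unknown here.

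The 3 genes of hexose phosphorylation thus did not share an order across the arrays. HXK1 exceeded GLK1 on every hybridization, with differences in log2 ratio of 0.82, 1.45 and 1.37 and a mean of 1.21 ± 0.34 (n = 3; 95% interval from their SD, taking the spread as normal, 0.36 to 2.06). The exact two-sided sign-flip test gave p = 0.25, the smallest value that 3 arrays allow, and 0.667 after adjustment over the 4 differences compared. HXK1 minus HXK2 was -0.029, 0.39 and 1.99, with a mean of 0.78 ± 1.07 (interval -1.87 to 3.44; exact p = 0.50, n = 3). HXK2 minus GLK1 was 0.85, 1.06 and -0.63, with a mean of 0.43 ± 0.92 (interval -1.86 to 2.71; exact p = 0.50, n = 3). With scans averaged where both had a value, the difference between HXK1 and GLK1 kept its sign on all 3 arrays and the other differences did not. On replicate 3, however, it sets a high-power value of HXK1 against a low-power value of GLK1. That array has no value of this difference within a single scan. HXK1 minus HXK2 also kept its sign with the high-power scan alone (0.025, 0.69 and 2.05) and after centring by spot position (0.63, 0.68 and 1.72), with an exact p of 0.25 in each. HXK1 and HXK2 are close copies too, so part of the signal of each spot may come from the other gene.

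PGI1 (YBR196C), the phosphoglucose isomerase gene, had log2 ratios of -0.92, 0.38 and 0.56. It was 1.89-fold lower on replicate 1 and 1.30-fold and 1.48-fold higher on replicates 2 and 3. These cancelled to a mean of 0.0087 ± 0.81 (interval -0.70 to 0.72; limma, adjusted p = 0.998). Without replicate 1 the mean was 0.47, and without replicates 2 and 3 in turn it was -0.18 and -0.27.

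The phosphofructokinase subunit genes differed in how they varied. PFK1 (YGR240C), of the alpha subunit, had -0.15, -0.36 and -0.18, and was the 1 member of the 8 below 0 on all 3 hybridizations, a pattern that 16.1% of all genes had. Its mean was -0.23 ± 0.12 (interval -0.73 to 0.27; limma, adjusted p = 0.927). The exact sign-flip test of its 3 values gave p = 0.25, the smallest possible. PFK2 (YMR205C), of the beta subunit, had -1.16, -0.21 and 0.43, with a mean of -0.31 ± 0.80 (interval -1.02 to 0.39; limma, adjusted p = 0.928). It was 2.24-fold lower on replicate 1, and without that array its mean was 0.11. PFK1 minus PFK2 was 1.01, -0.15 and -0.61, with a mean of 0.086 ± 0.84 (interval -1.99 to 2.16; exact p = 1.00, n = 3), and -0.38 without replicate 1. The interval is wide enough to hold more than a 2-fold difference either way, so the arrays do not show that the subunit genes changed alike.

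FBA1 (YKL060C), the aldolase gene, had -0.56, 0.23 and 0.15, and its mean was -0.061 ± 0.43 (interval -0.63 to 0.51; limma, adjusted p = 0.980). It was below 0 on replicate 1 alone, and its mean was 0.19 without that array. Its scans of replicate 3 differed in sign, at 0.35 with high and -0.049 with low power, the widest gap between scans among the members on that array (0.398, beside a median of 0.102 over all genes). TPI1 (YDR050C), the triose phosphate isomerase gene, had -1.60, 0.058 and 0.70. Its value on replicate 1, 3.02-fold lower, was at percentile 0.275 of the genes tested on that array. The mean was -0.28 ± 1.19 (interval -1.17 to 0.61; limma, adjusted p = 0.943), and it was 0.38 without replicate 1 and -0.77 without replicate 3.

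**Figure D2:**
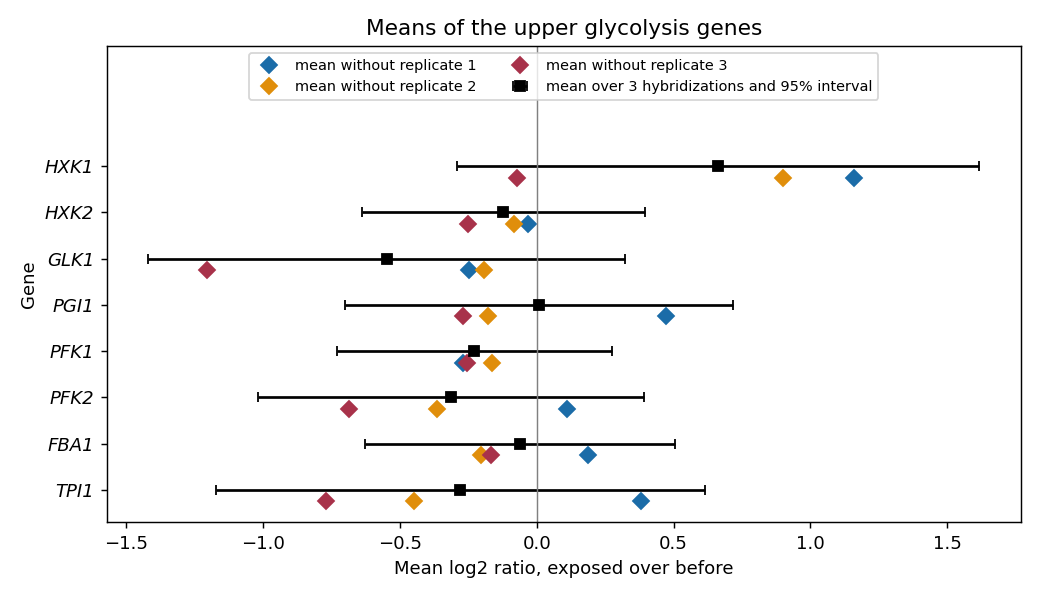
Mean log2 ratio of exposed over before (horizontal axis) for each upper glycolysis gene (vertical axis): black squares are means over 3 hybridizations with the 95% interval of the limma fit, and coloured diamonds are means with 1 hybridization left out. Every interval spans 0, and diamonds fall on both sides of 0 for HXK1, PGI1, PFK2, FBA1 and TPI1.

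The spread over the hybridizations was itself unequal among the genes. The SD of the 8 genes had a median of 0.80, beside 0.38 over all genes tested, and 5 of the 8 (HXK1, GLK1, PGI1, PFK2 and TPI1) had an SD above 0.5, as 32.5% of all genes did. The SDs of HXK1, TPI1 and GLK1 were at percentiles 98.5, 98.1 and 97.7 of the genes tested. At the other end, PFK1 and HXK2 had SDs of 0.12 and 0.23, at percentiles 7.03 and 24.0. The SD of HXK2 depended on the processing. After centring by spot position, a setting chosen after seeing the data, HXK2 had an SD of 0.60, FBA1 0.78 and PFK1 0.16. The SDs of the others were then 1.21 (HXK1), 1.06 (GLK1), 0.66 (PGI1), 0.57 (PFK2) and 0.75 (TPI1). Without that centring, much of the spread lay between replicates 1 and 3. The value on replicate 3 was more than 1 above that on replicate 1 for 5 of the 8 genes, against 9.06% of all genes, and 7 of the 8 (all but PFK1) were below 0 on replicate 1 and above 0 on replicate 3, against 29.2%. The gap was 2.46 for HXK1, 2.30 for TPI1, 1.92 for GLK1, 1.59 for PFK2, 1.48 for PGI1, 0.71 for FBA1, 0.44 for HXK2 and -0.031 for PFK1. Lower glycolysis genes showed a like spread and a like rise from replicate 1 to replicate 3, with counts given below.

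**Figure D3:**
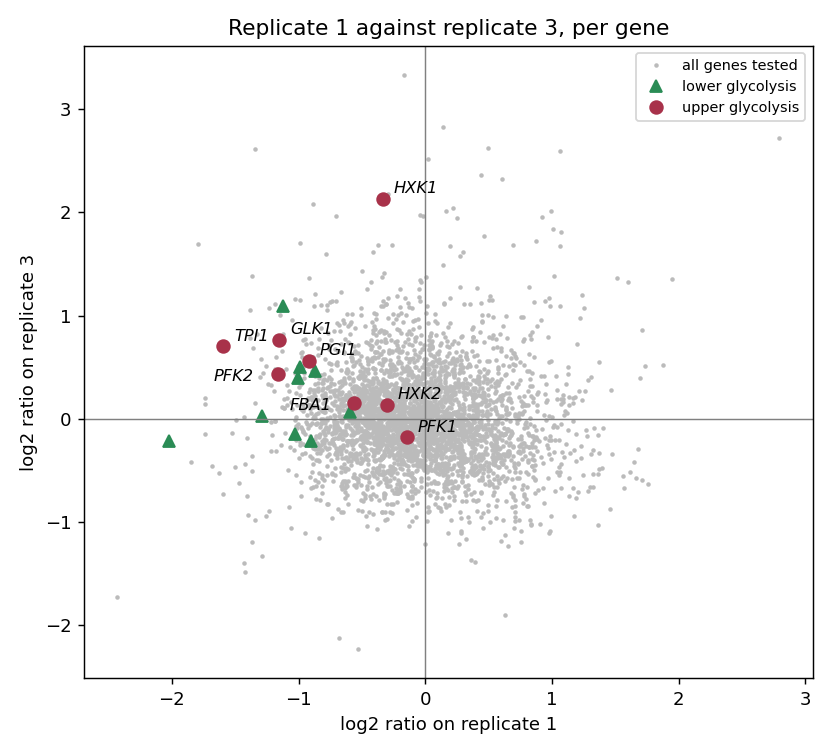
Log2 ratio on replicate 1 (horizontal axis) against replicate 3 (vertical axis), 1 point a gene: grey for the 3642 genes tested, red circles for the 8 upper and green triangles for the 9 lower glycolysis genes. All 17 glycolytic genes lie left of 0 on replicate 1, and 7 of the 8 upper ones lie above 0 on replicate 3.

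The scans also differed for these genes. On replicate 3, GLK1, PFK2 and TPI1 had a value in the low-power scan and none in the high-power scan, 3 of the 8 genes, beside 7.19% of all genes tested; per the labels a second laser power was used because some spots exceeded what the scanner could read. Among the lower glycolysis genes, TDH3, GPM1 and CDC19 likewise had a low-power value alone on replicate 3. HXK1 on replicate 3 and PFK1 on replicate 2 had a value with high power alone. Where both scans had a value they gave the same sign for every member apart from FBA1 on replicate 3, and the largest difference was 0.227 on replicate 1, 0.321 on replicate 2 and 0.398 on replicate 3. The gap between replicates 1 and 3 was larger than any of these for each of the 8 genes apart from PFK1. Whether the missing scans bear on the values of replicate 3 was not tested.

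The enzymes of lower glycolysis, which turn glyceraldehyde 3-phosphate into pyruvate, were all measured and gave 8 means of 9 below 0 (all genes, 55.2%), with a median of -0.29. By limma 0 of the 9 passed after Benjamini-Hochberg adjustment and 1 at an unadjusted p of 0.05 (ENO2, lower; 3.38% of all genes were lower at that threshold). All 9 were below 0 on replicate 1, and their medians were -1.001, -0.092 and 0.067 on the 3 hybridizations, beside -0.74, -0.070 and 0.50 for upper glycolysis. Of these 9, 7 had an SD above 0.5 (all genes, 32.5%), and their median SD was 0.70. On replicate 3, 6 of the 9 were more than 1 above replicate 1 (all genes, 9.06%). Below 0 on replicate 1 and above 0 on replicate 3 were also 6 of the 9 (all genes, 29.2%). More than 2-fold below on replicate 1 were 5 of the 9 lower and 3 of the 8 upper genes (GLK1, PFK2 and TPI1), against 2.64% of all genes. The enolase genes ENO1 and ENO2 were below 0 on all 3 arrays, as 16.1% of all genes were. Their means were -0.54 ± 0.45 and -0.87 ± 1.00 (limma, adjusted p = 0.806 and 0.785). ENO2 was at -2.02 on replicate 1 and at -0.38 and -0.22 on the others. The glyceraldehyde 3-phosphate dehydrogenase genes TDH1, TDH2 and TDH3, close copies of each other, had means of 0.098 ± 1.12, -0.12 ± 0.68 and -0.38 ± 0.79. PGK1 (phosphoglycerate kinase) had -0.29 ± 0.58, GPM1 (phosphoglycerate mutase) -0.19 ± 0.75, CDC19 (the main pyruvate kinase) -0.30 ± 0.34 and PYK2 (the second pyruvate kinase) -0.27 ± 0.70. The difference between upper and lower glycolysis was not tested.

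**Figure D4:**
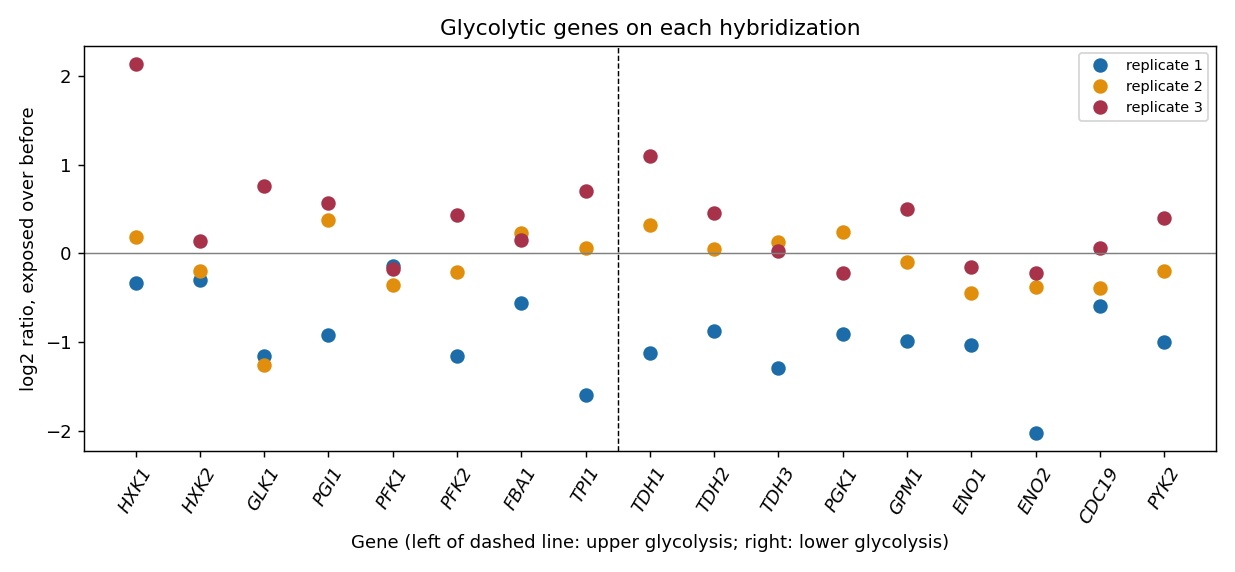
Log2 ratio of exposed over before (vertical axis) for the 8 upper and 9 lower glycolysis genes (horizontal axis, upper genes left of the dashed line), 1 point for each of the 3 hybridizations. Replicate 1 lies below 0 for all 17 genes, from -0.15 for PFK1 to -2.02 for ENO2, while replicates 2 and 3 lie on both sides.

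Around the pathway, GPP1, a glycerol 3-phosphatase gene of the route that leaves glycolysis at the triose phosphates, had -1.40, -0.77 and -0.93. It was lower on every array, as 16.1% of all genes were, with a mean of -1.04 ± 0.33 (95% interval -1.57 to -0.50). GPP1 did not pass (limma, adjusted p = 0.245 and unadjusted p = 0.00188). GPD2, a glycerol 3-phosphate dehydrogenase gene of the same route, had -0.50 ± 0.86 with -1.31, -0.60 and 0.40. Only these 2 of the 4 genes listed for that route were tested. By limma 0 passed after adjustment and 1 at an unadjusted p of 0.05, a threshold that 6.15% of all genes passed. GPD1, of the same route, lacked a value on replicate 2 and was not tested. It was above 0 on the arrays that measured it, at 0.19 on replicate 1 and 0.60 on replicate 3.

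At the hexose phosphates, 9 of 16 listed genes were tested, and 6 had a mean above 0 and 3 below (all genes, 55.2% below), with a median of 0.15; 0 passed by limma after adjustment and 1 at an unadjusted p of 0.05, a threshold that 6.15% of all genes passed. SOL3, the 6-phosphogluconolactonase gene of the pentose phosphate pathway, had 0.22, 1.18 and 0.59 (mean 0.66 ± 0.48; adjusted p = 0.769), and TAL1, the transaldolase gene, had 0.29, 0.62 and 0.34 (mean 0.42 ± 0.17; adjusted p = 0.855). Both lay above 0 on every array, as 11.5% of all genes did. The pentose phosphate gene ZWF1 lacked a value on replicate 2 and was not tested. It was at -0.74 on replicate 1 and 0.086 on replicate 3.

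Of 16 listed regulators of sugar phosphorylation, phosphofructokinase and glycolytic transcription, 15 were tested, and 12 had a mean below 0 (all genes, 55.2%), with a median of -0.11; 0 passed by limma after adjustment and 1 at an unadjusted p of 0.05, close to the 6.15% of all genes. GCR1, an activator of glycolytic genes, had -0.60, -0.77 and -0.22, with a mean of -0.53 ± 0.29 (adjusted p = 0.804). PFK27, which makes fructose 2,6-bisphosphate, an activator of phosphofructokinase, had 0.78, 0.64 and 0.13, with a mean of 0.52 ± 0.34 (adjusted p = 0.806). Of 5 listed gluconeogenic genes only the pyruvate carboxylase genes PYC1 (0.36 ± 0.57) and PYC2 (-0.43 ± 0.58) were tested. By limma 0 passed after adjustment and 0 at an unadjusted p of 0.05, a threshold that 6.15% of all genes passed. FBP1, PCK1 and MDH2 lacked a value on replicate 2 and were not tested. On replicates 1 and 3 FBP1 had 0.76 and 0.26, PCK1 0.89 and 0.68, and MDH2 0.16 and 0.32. Of all genes tested, 57.2% were below 0 on replicate 1 and 47.9% above 0 on replicate 3.

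Genes that glucose represses served as markers of the glucose state of the cells, since HXK1 and GLK1 belong to that class. Of 15 listed, 9 were tested, and the medians of those were -0.22, 0.10 and 0.75 on replicates 1, 2 and 3. The 6 others lacked a value on replicate 2 alone, and over all 15 the medians were 0.025 on replicate 1 and 0.56 on replicate 3, so the sign on replicate 1 depended on which markers were counted. Over the 9 tested the range ran from -1.59 to 0.61 on replicate 1, from -0.92 to 0.60 on replicate 2 and from -0.73 to 2.52 on replicate 3. Of all 15, 12 were higher on replicate 3 than on replicate 1 and 3 were lower (FBP1, PCK1 and IDP2, named after their values were seen). Higher on replicate 3 were also 7 of the 8 upper glycolysis genes and 55.3% of the 3642 genes tested. That tested set leaves out the 6 markers without a value on replicate 2. The hexose transporter genes HXT6 and HXT7, close copies named here after their values were seen, stood at 2.32 and 2.52 on replicate 3, where HXK1 stood at 2.13. On replicates 1 and 2 HXT6 had 0.61 and -0.74 and HXT7 0.025 and -0.92, opposite in sign to HXK1 (-0.33 and 0.19). Of the 9 tested markers, 8 were above 0 on replicate 3 (all genes, 47.9%), but SUC2 was at 0.049 there and ICL1 at -0.73. By limma 0 of the 9 passed after adjustment and 1 at an unadjusted p of 0.05, a threshold that 6.15% of all genes passed. That 1 was the transcription factor gene ADR1 (0.71 ± 0.25, limma, adjusted p = 0.611). REG2, a gene of a phosphatase subunit, had 0.52 ± 0.29 (limma, adjusted p = 0.804). The part of the glucose state in the values of upper glycolysis was not tested.

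The genes whose pattern was nearest to the median profile of the 8 (-0.74, -0.070 and 0.50), by root mean square distance over the 3 hybridizations, were MRS4 (0.0442), MCH1 (0.0574), VBA2 (0.0637), YFL067W (0.0691) and SLM3 (0.0713), on the log2 scale. Of the 8 themselves PFK2 was nearest, at a distance of 0.260 with 175 genes nearer, and HXK1 farthest, at 0.984 with 3217 genes nearer. Among pairs of the 8, HXK2 and PFK1 were closest, at 0.223, followed by HXK2 and FBA1 at 0.287, and HXK1 and PFK1 were farthest apart, at 1.37. PFK2 and TPI1 lay at 0.335. The 3 arrays are too few for a correlation between genes.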

How the data were processed

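The authors deposited log ratios per spot and scan, with no value for some spots; per the labels, they normalized with LOWESS using spots flagged 0. The base of these deposited values is not stated, and they were read as log2. LOWESS centres the ratios at each brightness, so a shift shared by most transcripts, or by most of the brightest ones, would be reduced. The table holds 6912 spots in 6 scans. The platform annotation names a gene for 5513 spots, and symbols were updated through the gene identifiers of the R64 gene table, which was used for names alone. Signal over background is unknown, since intensities, background and array design were not used here.

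Both scans of a hybridization were averaged per spot (a single scan stands where the other has no value), then spots per gene. With limma 3.58.1 in R 4.3.3, the mean of each of 3642 genes with 3 hybridizations was tested against 0 (eBayes, two-sided, Benjamini-Hochberg over all genes, threshold 0.05), after a check on simulated data. Pairs were compared with an exact sign-flip test, which cannot go below 0.25 on 3 arrays. Alternatives were single scans, values in both scans, centring, scaling, position, spots, genes on 2 hybridizations, moderation, scans as a block, and each replicate left out. The members and lists were chosen with earlier results of these data known. All members and lower glycolysis genes are named, as are the 2 tested genes with the smallest p of each other list and the 5 nearest genes.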

Additional observations from a re-analysis of the deposited data

How the results depend on the processing

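None of the 8 genes passed the test in any of the 14 alternatives, over 102 fits of a member. In 38 of these the mean was identical to the reported one (other moderation, for example); of the other 64, 55 kept the sign of the mean and 9 did not. With the high-power scan alone PGI1 was -0.013 and FBA1 0.019, and with each scan centred within groups of 36 neighbouring spot numbers, a setting chosen after seeing the data, PGI1 was -0.041. With a replicate left out the mean ran from -0.073 to 1.16 for HXK1, from -0.27 to 0.47 for PGI1, from -0.69 to 0.11 for PFK2, from -0.20 to 0.19 for FBA1 and from -0.77 to 0.38 for TPI1, and the difference PFK1 minus PFK2 ran from -0.38 to 0.43. HXK2, GLK1 and PFK1 stayed below 0 in every alternative that gave them a value. The lowest adjusted p of any member was 0.202, for GLK1 without replicate 3. The median of the members ran from -0.26 to 0.15 with a replicate left out and from -0.19 to -0.013 otherwise. Part of the second range comes from which members had a value. The -0.013, with high power alone, is over 5 members, and values in both scans gave -0.061 over 3 members. The count of all genes past the threshold was 2, against 4 of 967 genes with values in both scans, 1 after centring by spot position, 7 with all 6 scans and the hybridization as a random block, and 0 without moderation (192 at an unadjusted p of 0.05). It ran from 0 (without replicate 1, with 216 at an unadjusted p of 0.05, limma) to 3 with a replicate left out. The cause was not tested. Single scans give no 3-array value for GLK1, PFK2 and TPI1 (high power) or for HXK1 and PFK1 (low power). Each ratio already sets exposed against earlier RNA within an array. All samples form a single group, so no further pairing between groups was possible. The hybridization served as a block only to join its 2 scans. With 3 arrays, the intervals of the members reach 0.50 to 0.95 on each side of a mean, before any adjustment over genes. They rest on variances moderated across all genes, and for members with a large SD are narrower than their own 3 values would give. The intervals of the pair differences rest on the SD of 3 differences alone, so the widths of these 2 kinds cannot be compared. A call after adjustment needs larger changes, and GPP1 at -1.04 did not pass. Signal over background is unknown.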
